A study of Mus musculus with 12 samples.

Results

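DNA replication genes were examined in bone marrow-derived dendritic cells (BMDCs) with and without the β2 integrin chain CD18. The group held 37 of the 41709 genes in the tables, selected by gene name: 4 genes of origin recognition and licensing, the 6 subunits of the MCM helicase, 6 genes of helicase activation, 6 of the sliding clamp and its loader, 6 of primase and the replicative DNA polymerases, 5 of single-strand binding and Okazaki fragment processing, and 4 of nucleotide synthesis. The selection rule itself used names, not values. All 37 had enough reads to be tested (minimum count 10 in edgeR) in each comparison. RNA-seq libraries had been made from untreated BMDCs of CD18fl/fl mice, from CD18fl/fl BMDCs given 100 ng/mL LPS for 24 h, and from untreated and LPS-treated BMDCs of CD18-delta-CD11c mice (CD18CD11c cKO below), with 3 libraries in each of the 4 groups. All mice carried 2 floxed copies of the CD18 gene Itgb2. The cKO mice differed by a Cre recombinase driven from the CD11c promoter, which removes exon 3 in cells that use this promoter, so the deletion follows CD11c expression during culture. Bone marrow cells had been cultured with GM-CSF, and MHCII+ cells were taken with magnetic beads before RNA was isolated. LPS is the bacterial lipopolysaccharide sensed by TLR4. The age and sex of the mice and whether bone marrow was pooled are not given in the sources used here.

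DNA replication begins at origins. In G1 phase, the origin recognition complex (ORC), CDC6 and CDT1 load the ring-shaped MCM helicase onto DNA, and in S phase CDC45 and the GINS complex turn it into the active helicase of the replication fork. Primase and DNA polymerase α start each strand, the clamp loader RFC places the sliding clamp PCNA, polymerases δ and ε extend the DNA, and FEN1 and DNA ligase I join the Okazaki fragments, while ribonucleotide reductase, thymidylate synthase and thymidine kinase supply deoxynucleotides. Many of these genes are transcribed in late G1 and S phase under the control of E2F transcription factors. Bone marrow precursors divide in GM-CSF culture, whereas mature dendritic cells are largely non-dividing.

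Promoter sequences were compared with 2 kinds of motif known from replication genes, the E2F motif (here the letters TTTCCCGC, TTTGGCGC and TTTCGCGC) and the CCAAT box (CCAAT), on both strands of the 250 bases before the transcription start. RefSeq promoters (GRCm38.p6) were at hand for 30 of the 37 genes, with 34 promoters in all. At least 1 of the 3 E2F motifs stood in 8 of the 34 (23.5%), against 1.53% of the 32851 promoters of all genes, and CCAAT in 21 (61.8%), against 33.8%. TTTCGCGC and TTTGGCGC read on opposite strands share bases where they overlap, as in Mcm5 and Mcm6. The E2F motifs were in the promoters of Cdc6, Gins3, Mcm5, Mcm6, Mcm7, Orc1, Pola1 and Rfc3. The 200 bases before the start are shown for 6 genes whose transcripts carry the comparisons below, 5′ to 3′ on the strand of the gene, with each match in capitals.

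Rrm2 (ribonucleotide reductase subunit, lower after LPS, GRCm38.p6 chr12:24708054-24708253, plus strand): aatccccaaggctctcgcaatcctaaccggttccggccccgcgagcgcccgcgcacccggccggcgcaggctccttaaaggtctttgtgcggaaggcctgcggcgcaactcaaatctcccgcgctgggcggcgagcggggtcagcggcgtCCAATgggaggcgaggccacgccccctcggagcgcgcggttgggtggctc
Mcm5 (MCM subunit, lower after LPS in the cKO, GRCm38.p6 chr8:75109309-75109508, plus strand): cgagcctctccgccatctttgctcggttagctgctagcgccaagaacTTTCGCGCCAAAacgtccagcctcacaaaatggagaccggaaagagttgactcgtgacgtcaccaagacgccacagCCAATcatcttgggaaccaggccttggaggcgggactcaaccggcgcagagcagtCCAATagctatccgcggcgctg
Mcm7 (MCM subunit, lower after LPS in the cKO, GRCm38.p6 chr5:138171884-138172083, minus strand): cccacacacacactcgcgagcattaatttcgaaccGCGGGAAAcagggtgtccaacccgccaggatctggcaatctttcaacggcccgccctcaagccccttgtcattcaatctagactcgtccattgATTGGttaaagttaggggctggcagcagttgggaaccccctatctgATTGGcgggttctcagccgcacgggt
Tyms (thymidylate synthase, higher after LPS, GRCm38.p6 chr5:30073626-30073825, minus strand): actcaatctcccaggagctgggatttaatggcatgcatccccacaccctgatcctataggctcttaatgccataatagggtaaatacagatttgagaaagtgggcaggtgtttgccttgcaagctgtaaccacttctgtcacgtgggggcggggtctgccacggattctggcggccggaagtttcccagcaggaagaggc
Prim1 (primase subunit, higher in the cKO, GRCm38.p6 chr10:128015015-128015214, plus strand): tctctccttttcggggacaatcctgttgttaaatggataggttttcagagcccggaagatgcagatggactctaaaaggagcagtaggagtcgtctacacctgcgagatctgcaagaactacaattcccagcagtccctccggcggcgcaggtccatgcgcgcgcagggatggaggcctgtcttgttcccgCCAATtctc
Rpa3 (single-strand binding subunit, higher in the cKO, GRCm38.p6 chr6:8259142-8259341, minus strand): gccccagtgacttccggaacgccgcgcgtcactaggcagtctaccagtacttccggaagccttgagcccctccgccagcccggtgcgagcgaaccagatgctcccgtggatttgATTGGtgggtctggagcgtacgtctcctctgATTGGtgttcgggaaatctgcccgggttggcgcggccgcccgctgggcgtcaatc

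Of these, Mcm5 held an E2F motif starting 153 bases before the start and Mcm7 1 at 165, both in addition to a pair of CCAAT boxes. Another promoter of Mcm7, not shown, held 1 CCAAT box at 47 bases and none of the E2F motifs. Rrm2 and Prim1 held 1 CCAAT box each, at 50 and 9 bases before the start, and Rpa3 held 2. Tyms held none of these letters in its 250 bases. Such matches describe the sequence only, and no binding was measured.

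The 12 libraries held between 29689149 and 34037178 total gene reads, of which 22459 to 55744 fell on the 37 genes, and 3 reads corresponded to 0.0881 to 0.101 counts per 1000000 gene reads (CPM). Itgb2 was at 379 to 420.2 CPM in untreated CD18fl/fl and at 120.5 to 189 CPM in untreated cKO libraries (log2 fold change −1.26 ± 0.23 SE, edgeR adjusted p = 0.0887, and 0.00392 when same-numbered libraries were treated as a block). Under LPS, it was at 167 to 267 CPM in CD18fl/fl and at 89.7 to 119 CPM in cKO libraries. Replicate 3 of each group stood apart from replicates 1 and 2 across all genes. Libraries with the same number deviated together from their group means, as did replicate 1 with replicate 2 of another group. For this reason, a fit that takes the number as a block (the replicate block) was run beside the unblocked fit of each comparison. For some single genes, only the blocked or only the unblocked value is given. Below, a gene is said to pass only if its adjusted p was under 0.05 in edgeR on all libraries of the comparison, and calls by other fits are named as such. The MHCII gene H2-Aa was at 2715 to 12720 CPM, and the 10 dendritic cell markers together were at 16263 to 46430 CPM. Single dendritic cell markers differed by replicate number in both directions. Flt3 was at 0.227 to 2.25 CPM in the 4 libraries of replicate 3 and at 9.22 to 35.5 CPM in the others, whereas Itgax (CD11c, whose promoter drives the Cre) was at 284 to 680 CPM in replicate 3 and at 30.8 to 210 CPM in the others. Zbtb46 was at 19.5 to 37.2 CPM in all 12 libraries, and its values in replicate 3 lay within the range of the other libraries except in untreated CD18fl/fl. Markers of neutrophils and their precursors (12 genes, summed) were at 1319 CPM in untreated CD18fl/fl replicate 1 and at 12.6 to 198 CPM in the other 11 libraries.

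Summed over the 37 genes, the untreated CD18fl/fl libraries held 950.2, 872 and 612 CPM (replicates 1, 2 and 3), and the LPS-treated CD18fl/fl libraries held 838, 936 and 571 CPM. The untreated cKO libraries held 1385, 1378 and 1612 CPM, and the LPS-treated cKO libraries held 1131, 1329.6 and 955 CPM. The untreated cKO libraries were thus above all 9 others. Without Pcna, the sums were 873, 619 and 946 CPM in untreated cKO and 657, 592 and 439 CPM in untreated CD18fl/fl libraries, which overlapped. In the mean of log2 CPM, in which each gene counts alike, the 4 groups stood at 3.49 ± 0.28 (untreated CD18fl/fl), 3.19 ± 0.06 (CD18fl/fl with LPS), 4.05 ± 0.43 (untreated cKO) and 3.42 ± 0.12 (cKO with LPS; SD, n = 3 each). The highest single library was untreated cKO replicate 3, at 4.47, and in this measure untreated cKO replicate 2, at 3.62, lay within the range of untreated CD18fl/fl. The labels do not say that the 3 libraries of a group come from separate animals or cultures, so p-values measure the spread between these libraries only. In bulk RNA, fewer cycling cells and less transcript per cell cannot be told apart.

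**Figure D1:**
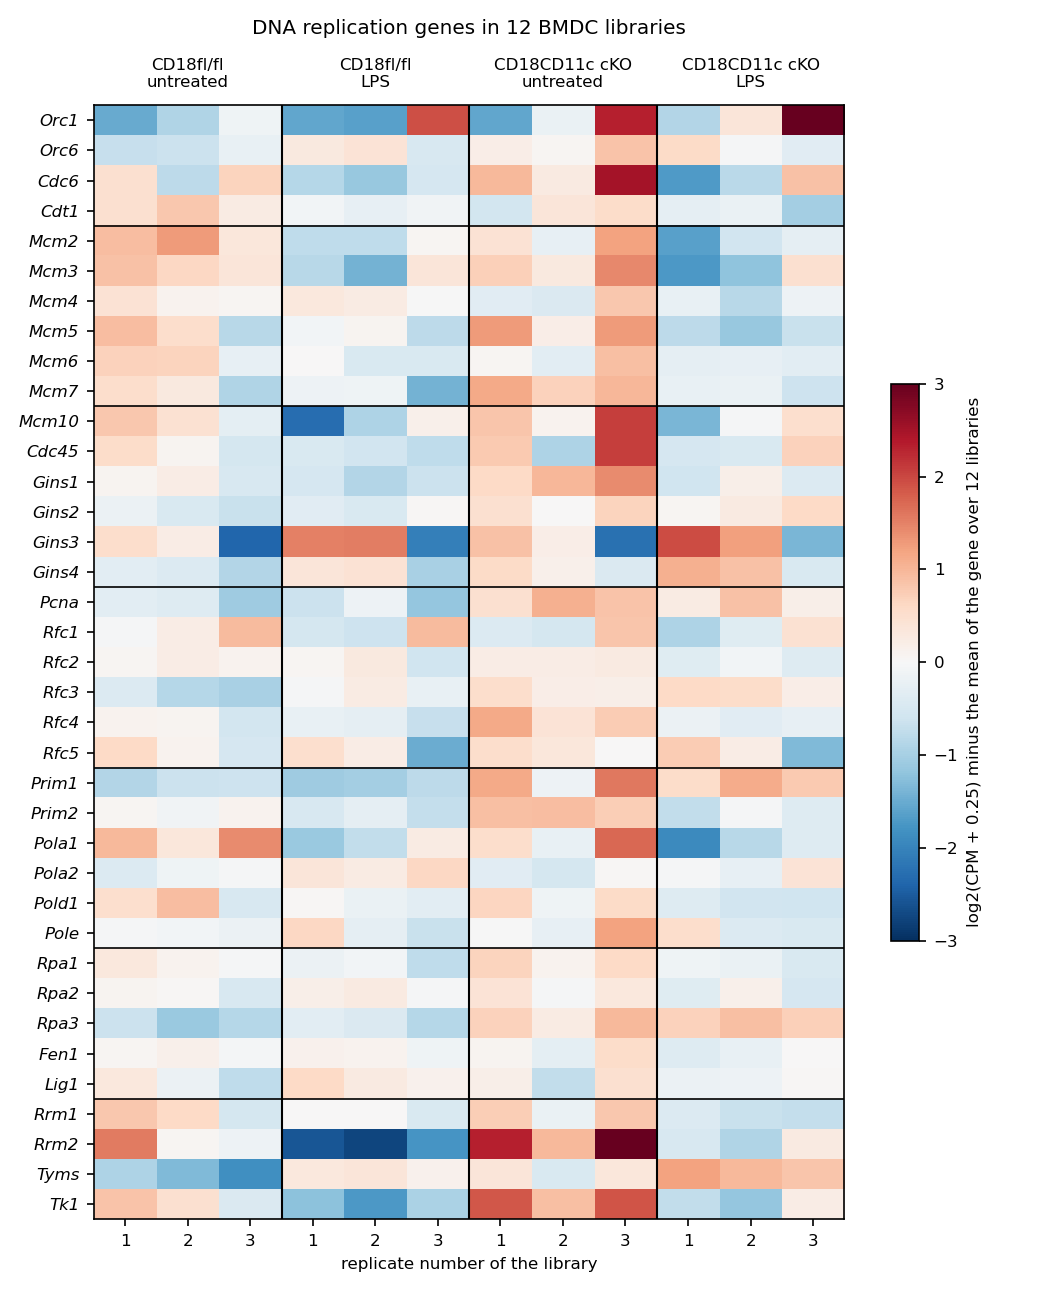
Level of the 37 DNA replication genes (rows, ordered by role and divided by lines) in the 12 libraries (columns, by group and replicate number). Colour gives log2(CPM + 0.25) minus the mean of the gene over the 12 libraries. Rrm2, Tk1 and most MCM genes are low under LPS, Tyms is low in untreated CD18fl/fl, Pcna, Prim1 and Rpa3 are high in all 6 cKO libraries except for Prim1 in untreated replicate 2, and Gins3 and Orc1 follow the replicate number.

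Stimulation with LPS was compared with no treatment within each genotype, which shows how the replication genes moved when BMDCs were activated. In CD18fl/fl BMDCs, Rrm2 fell and Tyms rose, and no other replication gene passed in edgeR, without or with the replicate block. Thus 1 of 37 genes (2.70%) was higher and 1 (2.70%) lower, against 2.06% and 1.83% of 12744 genes without the block and 6.33% and 6.43% with it. Of the 37, 3 (8.11%) were higher in every LPS library than in every untreated one, against 13.8% of all genes, and 7 (18.9%) were lower, against 15.6%. DESeq2 called Tyms higher and Mcm2, Rrm2 and Tk1 lower (2.70% and 8.11%, against 6.91% and 5.89% of 14027 genes), and with the block Gins3 and Tyms higher and Mcm2, Mcm3, Pola1, Rrm2 and Tk1 lower (5.41% and 13.5%, against 11.6% and 11.1% of 13789). The median log2 fold change of the 37 genes was −0.31 in edgeR, and that of all genes −0.02. On replicates 1 and 2 alone, 5 replication genes were higher and 13 lower (13.5% and 35.1%), against 23.2% and 24.3% of 12924 genes.

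In cKO BMDCs, the MCM subunits Mcm5 and Mcm7 fell with LPS, and no other member passed without the block (2 of 37 lower, 5.41%, against 1.76% of 12687 genes, and 0 higher, against 2.23%). The unadjusted p was under 0.05 for 13 genes that were lower and 1 that was higher (against 10.5% and 10.7% of all genes), and DESeq2 called 8 lower and 0 higher (21.6% and 0%, against 5.30% and 5.45% of 14251 genes). With the replicate block, 13 (35.1%) were lower, against 9.93% of all genes, and 2 (5.41%) were higher, against 10.2%. The 13 came from all 7 roles: Cdc6, Mcm3, Mcm5, Mcm7, Gins1, Rfc4, Prim2, Pola1, Pold1, Rpa1, Rrm1, Rrm2 and Tk1. The 2 that rose were Gins3 and Tyms. Every LPS library was below every untreated library for 13 genes (35.1%, against 14.2% of all genes) and above for Tyms alone (2.70%, against 14.1%). Group means of the summed progenitor and macrophage markers were also lower with LPS, but not every list or gene moved this way. The macrophage sums overlapped between the states in CD18fl/fl, and the progenitor sums in the cKO. The macrophage marker Cd14 rose, from 79.3 to 229 CPM to 444 to 1051 CPM in CD18fl/fl and from 67.5 to 280 CPM to 425 to 750 CPM in the cKO. In CD18fl/fl, summed dendritic cell markers had means of 22281 and 32442 CPM without and with LPS, and mast cell and basophil markers 22.7 and 36.7 CPM. In the cKO, these means were 28156 and 27007 CPM, and 50.7 and 43.2 CPM. The 8 progenitor markers summed to 101 ± 33.4 and 54.3 ± 24.8 CPM in untreated and LPS-treated cKO BMDCs and to 104 ± 10.7 and 41.7 ± 6.21 CPM in CD18fl/fl BMDCs, and the 10 macrophage markers to 2232 ± 237 and 1334 ± 46.9 CPM and to 2284 ± 212 and 1934 ± 263 CPM (SD, n = 3). The part of these cell types in the falls of the replication genes was not tested. The median log2 fold change was −0.62, against −0.01 over all genes, and by replicate number it was −0.57, −0.16 and −1.04. On replicates 1 and 2 alone, 6 were lower and 0 higher (16.2% and 0%), against 7.99% and 7.93% of 12872 genes.

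Whether the response to LPS differed between the genotypes was tested as an interaction over all 12 libraries. No replication gene passed (0 of 37, and 0 of all genes, with 13752 tested in edgeR without and with the block and 20496 in DESeq2). DESeq2 with the block also called 0 of 37, against 0.373% of 20634 genes higher and 0.252% lower. Without the block, 0 members had an unadjusted p under 0.05, against 0.349% of all genes on the positive and 0.356% on the negative side. With the block, 5 members had one (Mcm5, Prim2, Rfc3, Rfc4 and Rpa2, against 0.720% of all genes), each with a more negative LPS value in the cKO, and 0 had a more positive one (against 1.26%). At an unadjusted p under 0.05, DESeq2 gave 2 members on the negative and 0 on the positive side (against 0.576% and 0.444% of all genes), and with the block 7 and 0 (against 1.58% on either side). The blocked interaction was −1.32 ± 0.57 (log2, SE) for Mcm5 and −0.73 ± 0.31 for Prim2.

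CD18CD11c cKO BMDCs were then compared with CD18fl/fl BMDCs in each state, which shows whether the loss of CD18 goes with another level of replication transcripts. The untreated groups enter the comparisons of both LPS and genotype, so these results share libraries. Among untreated BMDCs, 0 of 37 genes passed without the block in edgeR, as did 0 of 12876 genes. An unadjusted p under 0.05 was found for 12 members, all higher in the cKO, against 10.8% of all genes higher and 5.93% lower, and DESeq2 called 7 higher (18.9%) and 0 lower, against 5.50% and 0.527% of 8920 genes. With the replicate block, 12 genes (32.4%) were higher in the cKO, against 12.1% of all genes, and 0 were lower, against 8.16%. They were Orc6, Mcm7, Gins2, Gins4, Pcna, Rfc3, Rfc4, Prim1, Prim2, Rpa3, Tyms and Tk1. Every cKO library was above every CD18fl/fl library for 13 genes (35.1%, against 13.3%), and below for 0 (against 11.0%).

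The size of this difference depended on the replicate number. The median log2 difference between untreated cKO and CD18fl/fl libraries of the same number was 0.33, 0.00 and 1.16 for replicates 1, 2 and 3, and 26, 19 and 36 of the 37 genes were higher in the cKO. The corresponding medians over all genes were −0.09, −0.11 and −0.09. The median from edgeR was 0.67 with all 6 libraries, 0.20 on replicates 1 and 2 alone and 0.36 without untreated cKO replicate 3. On replicates 1 and 2 alone, 5 genes were still called higher and 0 lower (13.5% and 0%, against 7.91% and 2.67% of 13068 genes), namely Gins4, Pcna, Prim2, Rfc3 and Rpa3. Untreated cKO replicate 3 was also the highest of the 12 libraries for the mitosis genes described below and for 8 markers of haematopoietic progenitors (summed 139 CPM, against 77.0 and 86.5 CPM in replicates 1 and 2 and 93.5 to 115 CPM in untreated CD18fl/fl). In the mean of log2 CPM, the same marker list was lowest there among the 6 untreated libraries (1.83, against 2.01 to 2.43). The 6 markers of mast cells and basophils were at 132 CPM in this library, of which Cpa3 alone held 115 CPM. They followed the replicate number, at 43.6, 99.1 and 112 CPM in replicate 3 of the other groups (untreated CD18fl/fl, CD18fl/fl with LPS and cKO with LPS). In replicates 1 and 2 of all groups, they were at 4.28 to 12.4 CPM. The part of other cell types in the difference was not tested.

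After LPS, 0 of 37 genes passed without the block, as did 0 of 12441 genes in edgeR. An unadjusted p under 0.05 was found for 5 members, all higher in the cKO (against 6.19% of all genes higher and 3.55% lower), and DESeq2 called 3 higher (8.11%) and 0 lower, against 1.22% and 0.0780% of 11532 genes. With the replicate block, 6 genes (16.2%) were higher, against 6.98% of all genes, and 0 were lower, against 3.16%. They were Orc1, Pcna, Prim1, Rpa3, Rrm2 and Tyms. Every cKO library was above every CD18fl/fl library for Pcna, Prim1, Rpa3, Rrm2 and Tyms (5 genes, 13.5%, against 9.18%) and below for Mcm4, Pold1, Rrm1 and Lig1 (4 genes, 10.8%, against 8.83%). The median log2 fold change was 0.10, against −0.11 over all genes, so the members as a group lay close to even. Pcna, Prim1, Rpa3 and Tyms were the 4 genes called higher in the cKO with the block in both states.

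**Figure D2:**
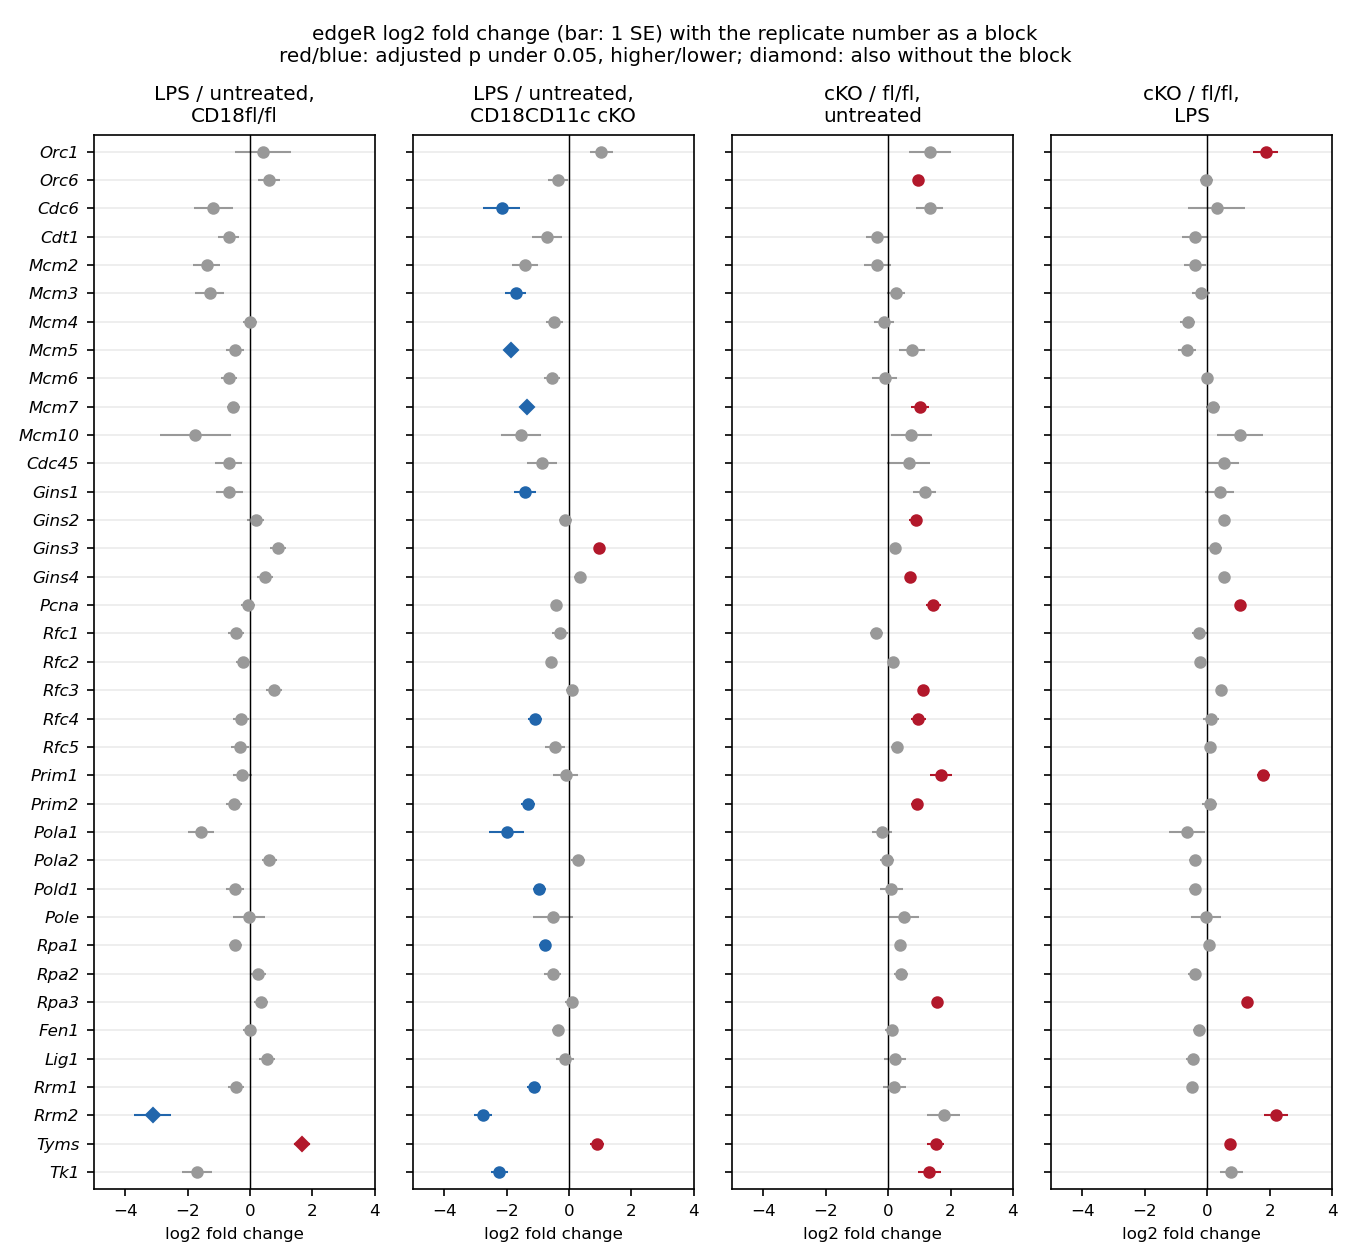
Log2 fold change (point) and its standard error (bar) of each of the 37 genes in the 4 comparisons, from edgeR with the replicate number as a block. Red and blue mark adjusted p under 0.05 for higher and lower levels and diamonds those that also passed without the block: Tyms and Rrm2 in CD18fl/fl, and Mcm5 and Mcm7 in cKO BMDCs. In the untreated genotype comparison, 12 genes are red and 0 blue.

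The genes of nucleotide synthesis had the highest and the lowest log2 fold change of the 37 with LPS in CD18fl/fl. Rrm2 (ENSMUSG00000020649, chromosome 12, 24758240 to 24764145, plus strand, GRCm39) encodes the small subunit of ribonucleotide reductase, which is made in S phase and limits deoxynucleotide supply. In CD18fl/fl BMDCs, it stood at 18.7, 6.47 and 5.59 CPM (replicates 1, 2 and 3) without LPS and at 0.835, 0.707 and 1.65 CPM with LPS. In cKO BMDCs, it stood at 32.0, 12.3 and 70.4 CPM without and at 4.34, 3.19 and 7.51 CPM with LPS. The LPS libraries were below the untreated ones in both genotypes without overlap, and the cKO libraries were above CD18fl/fl in each same-numbered pair of both states. The fall in CD18fl/fl was −3.25 ± 0.64 on the log2 scale (edgeR adjusted p = 0.0442). The fall in the cKO was −2.96 ± 0.67 (adjusted p = 0.0572), and with the block −2.75 ± 0.28 (adjusted p = 0.00209, 6.75-fold). Between the genotypes after LPS, Rrm2 was 2.21 ± 0.39 higher in the cKO with the block (adjusted p = 0.0179 in edgeR, and 0.353 without it). Without LPS, the blocked difference was 1.78 ± 0.54 (adjusted p = 0.0537), with pair differences of 0.76, 0.90 and 3.60.

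Tyms (ENSMUSG00000025747, chromosome 5, 30263200 to 30278615, minus strand, GRCm39), which encodes thymidylate synthase, the enzyme that makes dTMP from dUMP, moved against the other genes of this role. It was at 10.4, 7.70 and 5.32 CPM in untreated and at 24.8, 25.5 and 21.8 CPM in LPS-treated CD18fl/fl BMDCs. It was at 25.7, 14.3 and 24.98 CPM in untreated and at 46.4, 39.3 and 35.6 CPM in LPS-treated cKO BMDCs. Tyms thus rose in both genotypes with no overlap of the groups, and was higher in the cKO in both states with no overlap. The rise was 1.63 ± 0.30 in CD18fl/fl (edgeR adjusted p = 0.0388) and 0.89 ± 0.22 in the cKO with the block (adjusted p = 0.0323, and 0.145 without it). The genotype difference with the block was 1.53 ± 0.27 without LPS (adjusted p = 0.0105) and 0.72 ± 0.15 with LPS (adjusted p = 0.0300), and neither passed without it (0.136 and 0.402). The calls of Tyms and Rrm2 in CD18fl/fl were lost when replicate 1 or 2 of either group was left out (edgeR adjusted p for Tyms 0.106 to 0.182). Tyms also missed the threshold with scaling by library size and on exon-exon reads, each without the block.

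Tk1, thymidine kinase 1, which salvages thymidine in S phase, was at 10.7, 8.25 and 4.28 CPM in untreated and at 2.34, 1.60 and 2.92 CPM in LPS-treated CD18fl/fl BMDCs. In the cKO, it was at 22.03, 11.1 and 22.4 CPM without and at 3.404, 2.47 and 6.83 CPM with LPS. The LPS groups lay below the untreated groups without overlap in both genotypes. It fell by 2.23 ± 0.28 in the cKO with the block (edgeR adjusted p = 0.00375, and 0.0607 without it), whereas the change of −1.75 ± 0.47 in CD18fl/fl did not pass (adjusted p = 0.0864, and 0.0651 with the block). Of its reads, 80.1% were unique and 19.9% lay in introns, and its end overlaps Afmid on the opposite strand. Rrm1, the large subunit of ribonucleotide reductase, had group means of 30.8 ± 13.1 and 21.1 ± 3.71 CPM in CD18fl/fl and of 33.5 ± 11.4 and 15.3 ± 1.76 CPM in cKO BMDCs (without and with LPS, SD, n = 3). It fell in the cKO by 1.12 ± 0.24 with the block (edgeR adjusted p = 0.0190, and 0.0862 without it).

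**Figure D3:**
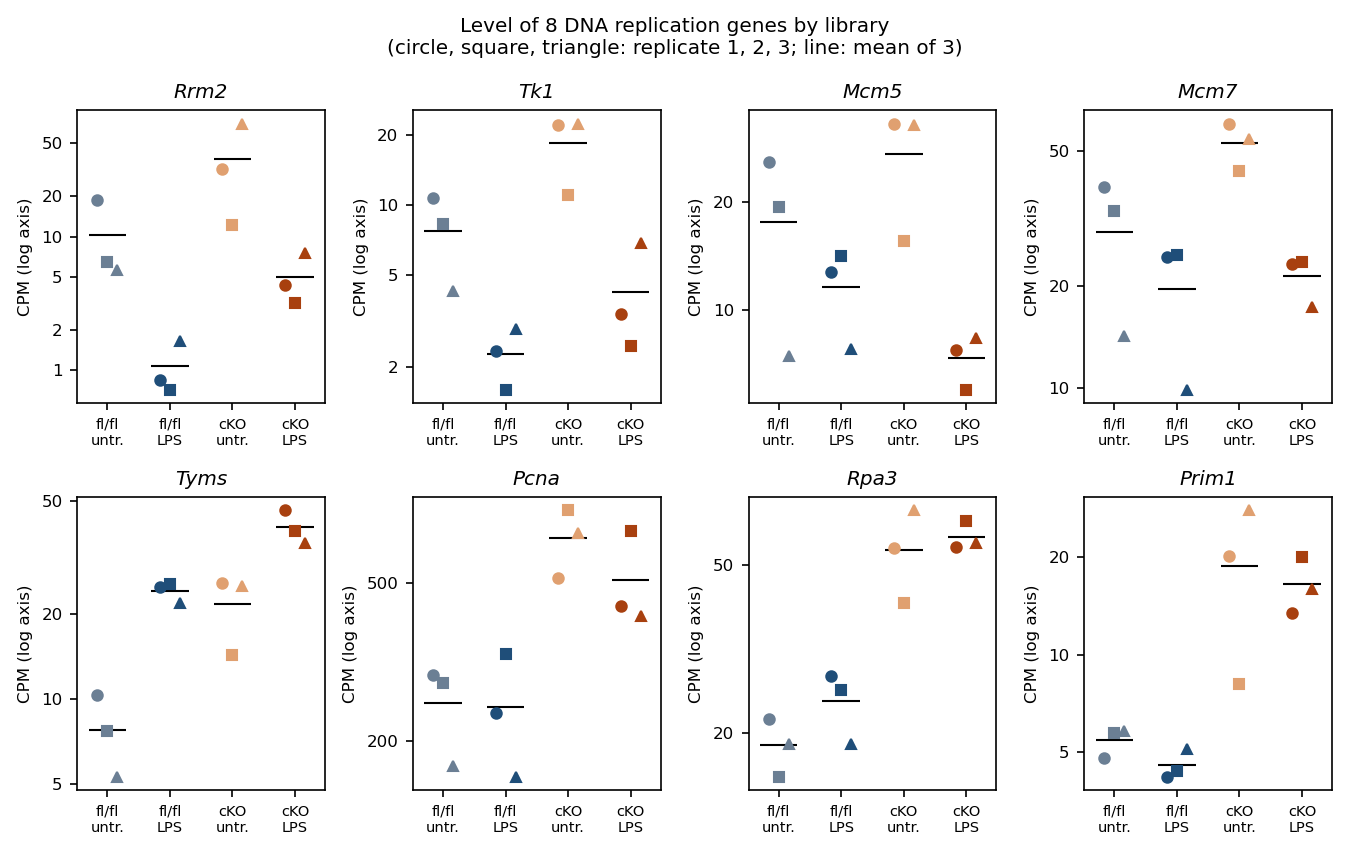
Level of 8 replication genes in each library (CPM on a log axis) by group, with symbols for the replicate number and a line at the mean of 3. Rrm2 and Tk1 lie lower with LPS in both genotypes, Mcm5 and Mcm7 in the cKO, Tyms lies higher with LPS, and Pcna, Rpa3 and Prim1 lie higher in every cKO library than in any CD18fl/fl library of the same state.

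Among the 6 subunits of the MCM helicase, which unwinds DNA at the fork, Mcm5 and Mcm7 carried the LPS result. Mcm5 (ENSMUSG00000005410, chromosome 8, 75836197 to 75855067, plus strand, GRCm39) was at 25.9, 19.3 and 7.43 CPM in untreated and at 12.7, 14.1 and 7.75 CPM in LPS-treated CD18fl/fl BMDCs. It was at 33.1, 15.6 and 32.8 CPM in untreated and at 7.70, 5.97 and 8.32 CPM in LPS-treated cKO BMDCs. The cKO groups were separate, whereas those of CD18fl/fl overlapped because replicate 3 was low in both. Mcm5 fell by 1.93 ± 0.36 in the cKO (edgeR adjusted p = 0.0394, and 0.00314 with the block). The value in CD18fl/fl was −0.60 ± 0.48 (adjusted p = 0.480).

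Mcm7 was at 39.1, 33.2 and 14.2 CPM in untreated and at 24.4, 24.7 and 9.89 CPM in LPS-treated CD18fl/fl BMDCs. In the cKO, it was at 60.1, 43.5 and 54.0 CPM without and at 23.1, 23.6 and 17.4 CPM with LPS. Mcm7 fell by 1.35 ± 0.24 in the cKO (edgeR adjusted p = 0.0342, and 0.00616 with the block), and every untreated cKO library was above every untreated CD18fl/fl library. That genotype difference was 1.02 ± 0.29 with the block (edgeR adjusted p = 0.0443, and 0.301 without it). Mcm7 shares its ends with Cops6 and Ap4m1 on the opposite strand. The LPS calls of Mcm5 and Mcm7 were lost when replicate 1 or 2 of either cKO group, or untreated replicate 3, was left out. Mcm7 also lost its call when all 12 libraries were fitted together without the block.

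The other 4 subunits gave mixed values. Mcm3 had means of 18.3 ± 3.39 and 8.57 ± 5.79 CPM in CD18fl/fl and of 21.99 ± 9.22 and 8.20 ± 7.05 CPM in the cKO (without and with LPS), and fell by 1.71 ± 0.33 in the cKO with the block (edgeR adjusted p = 0.0137, and 0.258 without it). Mcm2 was lower in every LPS library than in any untreated library of the same genotype, at log2 fold changes of −1.37 ± 0.40 and −1.39 ± 0.55, neither of which passed in edgeR (adjusted p = 0.103 and 0.201, with the block 0.0818 and 0.0525), although DESeq2 called it lower in CD18fl/fl and, with the block, in both. Mcm4 and Mcm6 did not pass in edgeR, although Mcm6 was called lower with LPS in CD18fl/fl on replicates 1 and 2 and Mcm4 lower in LPS-treated cKO BMDCs with library size scaling and the block. For LPS in the cKO, their values were −0.56 ± 0.44 and −0.64 ± 0.35, and in CD18fl/fl Mcm4 had means of 13.6 ± 1.98 and 13.5 ± 1.63 CPM. The subunits of the ring therefore differed in whether they passed, and these differences between genes were not tested.

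In origin recognition and licensing, Cdc6, the loader of MCM, was low. It was at 2.00, 0.677 and 2.30 CPM in untreated CD18fl/fl and at 0.642, 0.483 and 0.890 CPM with LPS. In the cKO, it was at 2.92, 1.70 and 8.91 CPM without and at 0.243, 0.674 and 2.72 CPM with LPS. Replicate 3 was thus the highest in each of the 4 groups. Cdc6 fell in the cKO by 2.16 ± 0.60 with the block (edgeR adjusted p = 0.0453, and 0.337 without it). Its partner Cdt1 had means of 6.01 ± 1.20 and 3.68 ± 0.227 CPM in CD18fl/fl, with no overlap, and of 4.71 ± 1.78 and 2.93 ± 0.916 CPM in the cKO. It passed in no comparison in edgeR, and was called lower with LPS in CD18fl/fl on replicates 1 and 2.

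Orc6, the smallest ORC subunit, had means of 8.995 ± 1.75 CPM in untreated CD18fl/fl and 17.2 ± 5.48 CPM in untreated cKO BMDCs, with no overlap. It was 0.97 ± 0.18 higher in the cKO with the block (edgeR adjusted p = 0.0129, and 0.180 without it). With LPS, the means were 14.0 ± 4.32 and 13.9 ± 4.68 CPM. Orc1, the largest ORC subunit, had 0.305, 0.602 and 1.20 CPM in untreated and 0.289, 0.260 and 5.82 CPM in LPS-treated CD18fl/fl BMDCs. It had 0.285, 1.13 and 7.69 CPM in untreated and 0.608, 1.80 and 20.7 CPM in LPS-treated cKO BMDCs. Replicate 3 was the highest of each group, and in replicates 1 and 2 the gene had only 7 to 40 reads a library. The blocked genotype difference with LPS was 1.87 ± 0.40 (edgeR adjusted p = 0.0317, and 0.768 without the block), and on exon-exon reads with the block it did not pass (0.294), whereas the difference without LPS did (2.64 ± 0.76, adjusted p = 0.0441 in edgeR).

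Helicase activation held both kinds of pattern. Gins1 fell with LPS in the cKO by 1.41 ± 0.36 with the block (edgeR adjusted p = 0.0355, and 0.114 without it), from a mean of 7.15 ± 2.06 to 2.78 ± 0.878 CPM. Gins2 and Gins4, which belong to the same 4-subunit complex, did not pass for LPS (Gins4 was called higher in CD18fl/fl on replicates 1 and 2 alone and without LPS replicate 3), but were higher in untreated cKO BMDCs with the block, by 0.89 ± 0.22 and 0.69 ± 0.14 (edgeR adjusted p = 0.0285 and 0.0176, without the block 0.186 and 0.3004). Gins4 had the second highest level per exon length of the 37 genes in CD18fl/fl. Of Gins2 reads, 78.8% were unique, and 2758 bases of its span overlap Gse1 on the opposite strand. Mcm10 and Cdc45, which join the helicase as it is activated, had low and variable levels (means 0.785 to 3.72 and 1.94 to 6.84 CPM) and passed in no comparison in edgeR, and Mcm10 was called lower with LPS in CD18fl/fl on replicates 1 and 2.

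Gins3 followed the replicate number in each group. It was at 29.8, 24.1 and 3.77 CPM in untreated and at 59.1, 60.4 and 4.78 CPM in LPS-treated CD18fl/fl BMDCs. It was at 38.0, 23.6 and 4.19 CPM in untreated and at 80.7, 48.9 and 7.87 CPM in LPS-treated cKO BMDCs. Replicate 3 thus differed from the mean of replicates 1 and 2 by −3.58 to −2.75 on the log2 scale, while LPS libraries were above the untreated ones of the same number in 6 of 6 pairs. With the block, the rise was 0.97 ± 0.18 in the cKO (edgeR adjusted p = 0.0115, and 0.591 without it) and 0.90 ± 0.26 in CD18fl/fl (adjusted p = 0.0705). Only 14.5% of its reads spanned exon-exon junctions, against a median of 67.9% over the members, and the blocked rise did not pass on those reads (edgeR adjusted p = 0.191 in the cKO). Rfc1 was shifted the other way, with replicate 3 higher by 0.87 to 1.51 in the 4 groups.

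**Figure D4:**
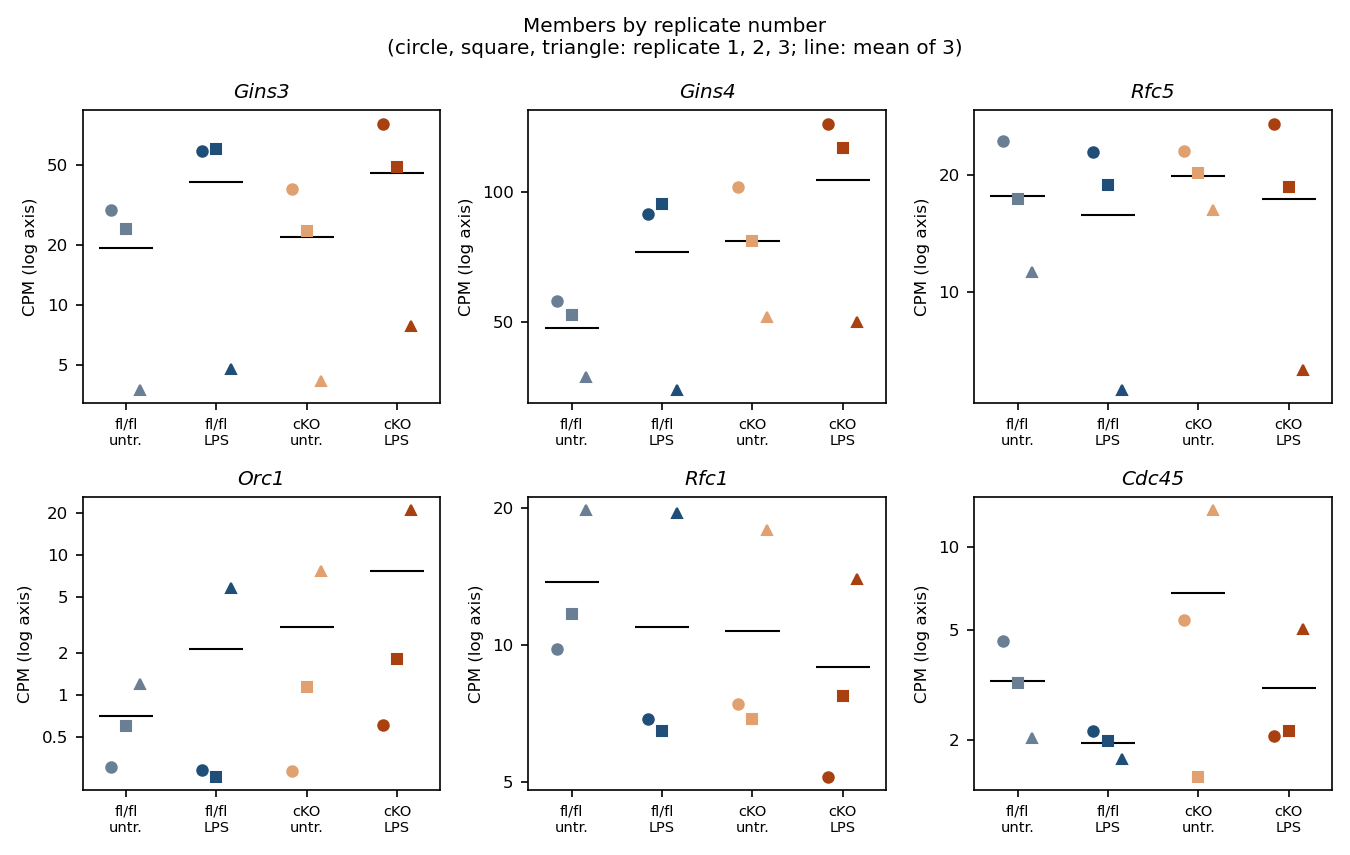
Level of 6 members in each library (CPM on a log axis) by group, with symbols for the replicate number. Gins3 in replicate 3 lies between 3.77 and 7.87 CPM in all 4 groups, below every library of replicates 1 and 2, Gins4 and Rfc5 are also lowest in replicate 3 of each group, and Orc1 and Rfc1 are highest there.

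The sliding clamp gene Pcna (ENSMUSG00000027342, chromosome 2, 132091082 to 132095234, minus strand, GRCm39) was the highest of the 37. It was at 293, 279 and 173 CPM in untreated and at 235, 330.4 and 162 CPM in LPS-treated CD18fl/fl BMDCs. It was at 512, 759 and 666 CPM in untreated and at 437, 675 and 413 CPM in LPS-treated cKO BMDCs. All 6 cKO libraries were above all 6 CD18fl/fl libraries. The difference was 1.45 ± 0.23 without LPS (edgeR adjusted p = 0.00661 with the block, and 0.103 without it) and 1.06 ± 0.15 with LPS (adjusted p = 0.0102, and 0.441 without it). For LPS itself, Pcna gave −0.03 ± 0.35 in CD18fl/fl and −0.40 ± 0.29 in the cKO, neither of which passed. For Pcna, the genotype groups were thus separate and the LPS groups overlapped.

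Of the 5 subunits of the clamp loader RFC, Rfc3 was higher in untreated cKO BMDCs by 1.12 ± 0.18 with the block (edgeR adjusted p = 0.00674, and 0.122 without it), with means of 8.97 ± 1.96 and 18.7 ± 2.58 CPM. Rfc4 was higher there by 0.96 ± 0.24 (adjusted p = 0.0296 in edgeR with the block) and fell with LPS in the cKO by 1.09 ± 0.23 (adjusted p = 0.0180, and 0.0746 without the block), from 15.5 ± 3.87 to 7.36 ± 0.452 CPM. It overlaps Eif4a2, at 845 CPM, by 194 bases on the opposite strand. Rfc1, Rfc2 and Rfc5 passed in no comparison in edgeR. By other fits, Rfc2 was called lower with LPS in the cKO (DESeq2 with the block, and library size scaling with the block), and Rfc1 lower with LPS in CD18fl/fl on replicates 1 and 2 and lower in untreated cKO BMDCs with library size scaling and the block. Rfc2 had means of 62.0 ± 3.88 and 67.0 ± 1.54 CPM in untreated CD18fl/fl and cKO BMDCs, and a value of −0.57 ± 0.17 for LPS in the cKO (edgeR adjusted p = 0.0568 with the block).

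Both subunits of primase, which makes the RNA primer, were higher in untreated cKO BMDCs. Prim1 (ENSMUSG00000025395, chromosome 10, 127851037 to 127865906, plus strand, GRCm39) was at 4.80, 5.74 and 5.83 CPM in untreated and at 4.21, 4.39 and 5.13 CPM in LPS-treated CD18fl/fl BMDCs. In the cKO, it was at 20.1, 8.14 and 27.8 CPM without and at 13.5, 20.1 and 15.9 CPM with LPS. All 6 cKO libraries were above all 6 CD18fl/fl libraries, by 1.68 ± 0.35 without LPS (edgeR adjusted p = 0.0175 with the block, and 0.139 without it) and by 1.80 ± 0.22 with LPS (adjusted p = 0.00709, and 0.286 without it). The change with LPS was −0.25 ± 0.31 in CD18fl/fl and −0.23 ± 0.44 in the cKO. Prim2 was higher in untreated cKO BMDCs by 0.91 ± 0.17 with the block (edgeR adjusted p = 0.0122, and 0.105 without it), with means of 11.3 ± 0.824 and 20.4 ± 1.49 CPM. Unlike Prim1, it passed for LPS in the cKO with the block, at −1.32 ± 0.23 (adjusted p = 0.0103, and 0.0511 without it).

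Of the polymerase genes, Pola1 and Pold1 passed with LPS in the cKO with the block. Pola1, the catalytic subunit of polymerase α, was lower in every LPS library than in any untreated library of the same genotype, with means of 5.24 ± 1.99 and 1.84 ± 1.09 CPM in CD18fl/fl and of 4.93 ± 3.52 and 1.22 ± 0.699 CPM in the cKO. With the block, the change was −1.58 ± 0.42 in CD18fl/fl (edgeR adjusted p = 0.0589) and −2.00 ± 0.57 in the cKO (adjusted p = 0.0498, and 0.174 without the block), and the latter did not pass with an offset for exon length (0.0550). Pold1, the catalytic subunit of polymerase δ, fell in the cKO by 0.95 ± 0.22 with the block (edgeR adjusted p = 0.0265, and 0.103 without it). Pola2, the second subunit of polymerase α, had positive values of 0.62 ± 0.26 and 0.30 ± 0.34 and did not pass. Pole, the catalytic subunit of polymerase ε, was at 1.17 to 4.94 CPM and did not pass in any comparison.

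RPA covers single-stranded DNA as a complex of 3 subunits, and their transcripts differed. Rpa3 (ENSMUSG00000012483, chromosome 6, 8255936 to 8259173, minus strand, GRCm39) was at 21.6, 15.8 and 18.8 CPM in untreated and at 27.3, 25.4 and 18.9 CPM in LPS-treated CD18fl/fl BMDCs. In the cKO, it was at 55.0, 40.7 and 67.3 CPM without and at 55.1, 63.7 and 56.4 CPM with LPS. All 6 cKO libraries were above all 6 CD18fl/fl libraries, by 1.57 ± 0.17 without LPS (edgeR adjusted p = 0.00306 with the block, and 0.0866 without it) and by 1.28 ± 0.17 with LPS (adjusted p = 0.00921, and 0.286 without it). Rpa1 fell with LPS in the cKO by 0.77 ± 0.19 with the block (edgeR adjusted p = 0.0350, and 0.118 without it), from 69.8 ± 14.0 to 42.0 ± 4.80 CPM. Rpa2 passed in no comparison, and neither did Fen1 (means 22.04 to 27.9 CPM) or Lig1 (means 9.55 to 13.5 CPM), which process and seal Okazaki fragments. Lig1 was lower in every LPS-treated cKO than in any LPS-treated CD18fl/fl library (9.86 ± 0.806 against 13.5 ± 2.28 CPM).

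An offset for exon length lowered some of the genotype differences. Rpa3 has the shortest exon length of the 37 (670 bases), and with an offset for exon length beside the block its difference was 0.85 without LPS (edgeR adjusted p = 0.0232) and 0.67 with LPS (0.0575). Pcna gave 1.11 and 0.83 (adjusted p = 0.0279 and 0.0173) and Prim1 1.37 and 1.59 (0.0483 and 0.0106), so these kept their calls. Gins4, Rfc4 and Tk1 no longer passed in untreated BMDCs (adjusted p = 0.212, 0.145 and 0.144), and Rpa1 passed, for 10 genes higher in all.

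Levels of different genes can be compared only per exon length. In CPM per kilobase of exon, Pcna was highest in each group, at 164 ± 43.3 and 159.8 ± 55.5 in CD18fl/fl and at 425 ± 82.0 and 335 ± 95.5 in cKO BMDCs (without and with LPS, SD, n = 3). Gins4 and Rpa3 took the next places, at 35.9 ± 7.30 and 27.96 ± 4.36 in untreated CD18fl/fl and at 57.2 ± 19.1 and 81.1 ± 19.9 in untreated cKO BMDCs, which exchanged their order but overlapped in their spread in CD18fl/fl. At the other end, Orc1 was lowest in untreated CD18fl/fl (0.23 ± 0.15) and Pola1 in LPS-treated cKO BMDCs (0.23 ± 0.13). Also low over the 4 groups, Pole was at 0.25 ± 0.01 to 0.38 ± 0.25, Cdc6 at 0.13 ± 0.04 to 0.90 ± 0.77 and Mcm10 at 0.16 ± 0.16 to 0.75 ± 0.56. The 6 MCM subunits, which enter the helicase in equal number, were at 3.55 to 7.83 in untreated CD18fl/fl and at 2.83 to 14.3 in untreated cKO BMDCs, with Mcm7 the highest in all 4 groups. Rrm2 moved from rank 21 of 37 in untreated CD18fl/fl (4.31 ± 3.09) to rank 33 with LPS (0.45 ± 0.22), while Tyms moved from rank 31 (1.99 ± 0.65) to rank 10 (6.13 ± 0.51).

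Other genes of the pathway were examined as 4 lists. Of 38 tested other genes of the fork and of origins, 0 rose and 2 fell with LPS in CD18fl/fl (with the block 1 and 2), and of 39 in the cKO, 0 rose and 3 fell (with the block 3 and 7). Over all genes, the shares that rose and fell without the block were 2.06% and 1.83% in CD18fl/fl and 2.23% and 1.76% in the cKO. With the block, they were 6.33% and 6.43% in CD18fl/fl and 10.2% and 9.93% in the cKO. The counts of all 4 lists can be read against the shares of the same fit. Pclaf, a partner of PCNA, fell from a mean of 15.1 to 1.35 CPM in CD18fl/fl (−3.49 ± 0.65, edgeR adjusted p = 0.0382) and from 80.1 to 8.58 CPM in the cKO (−3.25 ± 0.63, adjusted p = 0.0418). Dna2, a nuclease and helicase, fell by 2.69 ± 0.38 and 2.62 ± 0.38 (adjusted p = 0.0184 and 0.0217 in edgeR), and the histone chaperone Asf1b fell in the cKO by 3.00 ± 0.62 (adjusted p = 0.0460). Rnaseh2b rose in both genotypes with the block, by 1.35 ± 0.30 and 1.17 ± 0.32 (edgeR adjusted p = 0.0383 and 0.0424), as did Orc4 and Pold3 in the cKO. With the block, 10 of 39 were higher in untreated cKO BMDCs and 0 lower, led by Gmnn, Orc4 and Tipin, and 5 of 38 with LPS, led by Orc4, Pclaf and Rnaseh2b, where the shares of all genes were 12.1% and 6.98%. Without the block, edgeR called 0, and DESeq2 called 4 higher without LPS and 1 with LPS (against 5.50% and 1.22% of all genes). Medians for the 4 comparisons without the block were −0.05, −0.45, 0.50 and 0.01 (LPS in CD18fl/fl, LPS in the cKO, genotype without LPS and genotype with LPS).

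Of the other genes of nucleotide supply, 28 were tested in CD18fl/fl and 27 in the cKO for LPS. In each genotype, 1 rose and 2 fell, and with the block 1 rose and 6 and 8 fell (against 6.43% and 9.93% of all genes that fell). Dck, the kinase that salvages deoxycytidine, rose by 1.96 ± 0.38 and 1.67 ± 0.34 (edgeR adjusted p = 0.0421 and 0.0450), from means of 27.9 to 109 CPM and 39.1 to 129 CPM. Umps of pyrimidine synthesis fell in both genotypes, by 1.70 ± 0.26 and 1.59 ± 0.31 (edgeR adjusted p = 0.0222 and 0.0415), Gart of purine synthesis in CD18fl/fl by 1.48 ± 0.27 (0.0365), and Dtymk, thymidylate kinase, in the cKO by 1.22 ± 0.24 (0.0418). With the block, Nme1 fell in CD18fl/fl and Cad and Atic in the cKO. Nme2, Dtymk and Nme1 led the 5 of 28 higher in untreated cKO BMDCs with the block (0 lower), and Nme2, Hprt and Dtymk the 3 of 27 higher with LPS, where Impdh1 was lower (against 12.1% and 6.98% of all genes higher). The 4 medians were −0.53, −0.65, 0.07 and 0.10.

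In the list of E2F and RB regulators with G1/S cyclins, 0 of 32 rose and 3 fell in CD18fl/fl with LPS, and 0 of 33 rose and 2 fell in the cKO. E2f2 fell by 2.31 ± 0.33 and 2.57 ± 0.53 (edgeR adjusted p = 0.0195 and 0.0454), Cdk4 by 1.07 ± 0.21 and 1.30 ± 0.24 (0.0442 and 0.0373), and the S-phase cyclin Ccna2 in CD18fl/fl by 4.58 ± 0.80 (0.0338). With the block, 3 rose and 5 fell in CD18fl/fl (against 6.33% and 6.43% of all genes) and 5 rose and 7 fell in the cKO (against 10.2% and 9.93%). Those that rose included Ccnd2, which encodes cyclin D2 (from 60.7 to 211 CPM in CD18fl/fl and from 55.6 to 265 CPM in the cKO), and Cdkn1b, which encodes the CDK inhibitor p27 (from 90.4 to 422 CPM and from 115 to 433 CPM). Cdkn1a, of the inhibitor p21, rose in the cKO and E2f5 in CD18fl/fl, while Ccnd1 fell in both. Ccne2, cyclin E2, was higher in the cKO with the block in both states, by 1.98 ± 0.56 and 1.06 ± 0.21 (edgeR adjusted p = 0.0438 and 0.0249). Ccne1 and Cdkn2d were higher and Ccnd3 and Rb1 lower without LPS. The 4 medians were −0.09, −0.53, 0.02 and −0.14.

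The mitosis genes had lower medians with LPS than the replication genes, a difference that was not tested. Of 28, 4 fell and 0 rose in CD18fl/fl with LPS (with the block 7 and 0, against 6.43% and 6.33% of all genes), and 5 fell and 0 rose in the cKO (with the block 18 and 0, against 9.93% and 10.2%), with medians of −1.22 and −2.06. Kif23 and Kif11 fell in CD18fl/fl (−4.02 ± 0.76 and −3.69 ± 0.72, edgeR adjusted p = 0.0398 and 0.0436), Ube2c fell there from a mean of 6.44 to 0.108 CPM, which is about the level of 3 reads (adjusted p = 0.0292), and Ccnb1, Kif20a and Birc5 fell in the cKO (−3.66 ± 0.52, −3.94 ± 0.70 and −2.94 ± 0.56, adjusted p = 0.0210, 0.0342 and 0.0415). With the block, Cdc20 was among those that fell in the cKO. Between the genotypes with the block, 4 of 28 were higher in untreated cKO BMDCs, including Cenpa, Ccnb1 and Cdk1, and 1 of 25 with LPS, Birc5, with 0 lower in either state (against 12.1% and 6.98% of all genes higher). Without the block, edgeR called 0 in either state, and DESeq2 called 3 higher without LPS and 0 with LPS (against 5.50% and 1.22% of all genes). The mean log2 CPM of the 28 genes was 3.19, 2.46 and 1.96 in untreated CD18fl/fl and 3.54, 2.46 and 4.33 in untreated cKO libraries, so the genotypes overlapped. With LPS, it was 1.18, 1.03 and 1.44 and 0.94, 1.01 and 2.19, below every untreated library except that cKO replicate 3 with LPS lay above untreated CD18fl/fl replicate 3.

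**Figure D5:**
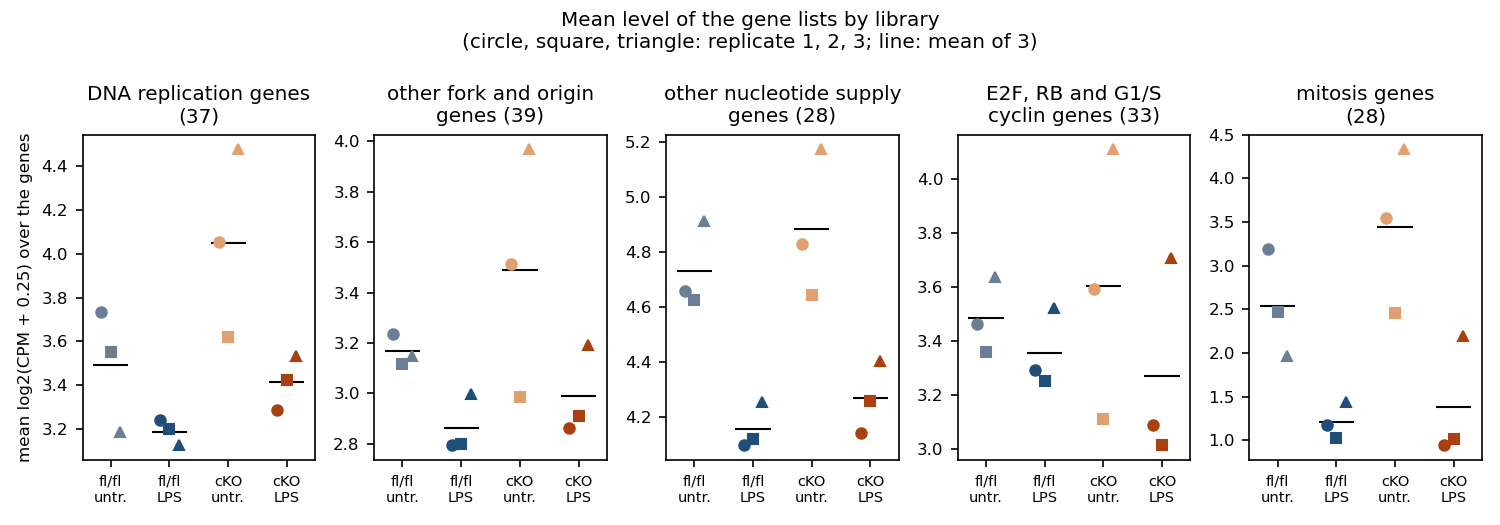
Mean of log2(CPM + 0.25) over the genes of each list (number of genes in parentheses) for every library, with symbols for the replicate number and a line at the mean of 3. The LPS groups lie below the untreated groups for nucleotide supply and within each genotype for mitosis genes, and untreated cKO replicate 3 is the highest library for all 5 lists.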

How the data were processed

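RNA-seq of BMDCs (12 libraries, 3 in each of 4 groups) had been made with a poly(A) kit that does not mark strand and read from 1 end. The authors mapped the reads in CLC Genomics Workbench and deposited raw read counts per gene for each library. The submitters' processing notes name GRCm38, while the gene coordinates in the tables are those of GRCm39, which is used here for gene positions. RPKM and other columns were not used.

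Total gene reads were tested with edgeR 4.0.16 (quasi-likelihood test, TMM, minimum count 10, Benjamini-Hochberg adjusted p under 0.05) in R 4.3.3, on the 6 libraries of each comparison and on all 12 for the interaction. Errors of log2 fold changes are the fold change divided by the root of F. CPM were TMM scaled over the 12 libraries, with 0.25 CPM added before logs. Levels per kilobase were computed from the exon length in the tables. DESeq2 1.42.0 was an alternative. The edgeR fit was also run on simulated counts to check the code, and no result here rests on that run. Libraries held 29689149 to 34037178 gene reads, and limits given from 3 reads cover counting error only.

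Replicate numbers come from the sample labels. The deviations of same-numbered libraries from their group means correlated in every pair (r = 0.26 to 0.72). Replicate 1 against 2 was positive as well (0.15 to 0.33), and replicate 3 against 1 or 2 gave −0.57 to −0.32. Deviations within a group cancel out, so these negative values are no separate result. The values thus set replicate 3 against the others more than they show matched numbers for replicates 1 and 2. A fit with the number as a block was run beside the unblocked one. What the number stands for is not given in the sources used here. The 37 genes and the other lists were chosen with earlier results of these data known. Genes of the other lists were named if they were among the 3 with the smallest adjusted p in a direction and comparison.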

Additional observations from a re-analysis of the deposited data

Results flagged for a closer look

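Intron reads of the 37 genes, which enter no comparison as a measure of their own, were at 19.7 per 1000000 total gene reads in LPS-treated CD18fl/fl replicate 3, above the 11.8 to 14.7 of the untreated CD18fl/fl libraries. The other LPS-treated CD18fl/fl libraries were at 6.60 and 7.01. In that library, Pola2 had 119 intron reads, Orc1 67 and Tyms 66.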

How the results depend on the processing

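Counts of replication genes called depended on the block, the tool and single libraries. Calls in the unblocked edgeR fits on all 6 libraries of a comparison kept their direction in every setting, but some calls of other fits did not. Orc1 passed for the genotype with LPS with the block, yet its unblocked value without 1 library ranged from −0.89 to 4.79. Rfc1 was called lower with LPS in CD18fl/fl on replicates 1 and 2, and without 1 library it ranged from −1.04 to 0.03. Added after seeing the data were the exon-exon reads and the block combined with library size scaling, DESeq2, exon-exon reads or all 12 libraries. For LPS in CD18fl/fl (1 higher, 1 lower, median −0.31), the number higher was 0 with library size scaling, 0 on exon-exon reads, 2 in DESeq2 with the block, 5 on replicates 1 and 2 and 4 on all 12 libraries with the block. The number lower was 2 with library size scaling and the block, 3 in DESeq2 and 5 with the block, 13 on replicates 1 and 2, and 2 on all 12 libraries and 5 with the block. The median was −0.56 with library size scaling and −0.64 with the block. Leaving out 1 library gave 0 to 3 higher, 0 to 5 lower and medians of −0.42 to −0.21, with 3 and 5 without LPS replicate 3. For LPS in the cKO (0 higher, 2 lower, median −0.62), 2 were higher with the block, 1 with library size scaling and the block, 1 on exon-exon reads with the block, and 2 each in DESeq2, with a length offset and on all 12 libraries, each with the block. The number lower was 13 with the block, 16 with library size scaling and the block, 5 without a filter, 10 on exon-exon reads with the block, 8 in DESeq2 and 15 with the block, 12 with a length offset and the block, 6 on replicates 1 and 2, and 5 on all 12 libraries and 13 with the block. The median was −0.33 on replicates 1 and 2 and −0.88 with library size scaling. Leaving out 1 library gave 0 to 0 higher, 0 to 5 lower (5 without LPS replicate 3) and medians of −0.78 to −0.39. For the genotype without LPS (0 and 0, median 0.67), the number higher was 12 with the block, 6 with library size scaling and the block (and 1 lower, Rfc1), 15 on exon-exon reads with the block, 7 in DESeq2 and 14 with the block, 10 with a length offset and the block, 5 on replicates 1 and 2, and 1 on all 12 libraries and 7 with the block. The median was 0.32 with library size scaling and 0.26 with the block as well, where 8 and 9 members had the other sign. It was 0.20 on replicates 1 and 2, and 0.36 to 0.86 without 1 library. For the genotype with LPS (0 and 0, median 0.10), the number higher was 6 with the block, 5 with library size scaling and the block (and 4 lower), 7 on exon-exon reads with the block, 3 in DESeq2 and 7 with the block, 6 with a length offset and the block, 2 on replicates 1 and 2 and 4 on all 12 libraries with the block. The median was −0.14 with library size scaling, −0.17 with the block and −0.081 on replicates 1 and 2, and −0.028 to 0.21 without 1 library. The interaction gave 0 in every setting, with medians of −0.57 to −0.16 without 1 library. Scaling by library size shifted the median of all genes by −0.31, −0.21, −0.39 and −0.26 in the 4 comparisons. The number of all genes called also depended on the setting. For LPS in the cKO, 948 of 10528 were higher and 893 lower on exon-exon reads with the block. With a length offset and the block, 1311 and 1227 of 12687 were. Where no share of all genes is given, the counts above describe the setting and are no result about the members. The causes were not tested. Where 1 library was left out of a group of 3, the rest share 1 estimate of spread. Genes with few reads, such as Orc1, Cdc6 and Mcm10, are limited by depth.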
